A study of Mus musculus with 229 samples.

Results

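The genes described here are 33 genes of DNA replication and S phase, the part of the cell cycle in which the genome is copied: Mcm2, Mcm3, Mcm4, Mcm5, Mcm6, Mcm7, Mcm10, Pcna, Tyms, Rrm1, Rrm2, Gins1, Gins2, Slbp, Cdc6, Cdc45, Cdt1, Uhrf1, Cdca7, Dtl, Fen1, Hells, Ung, Rfc2, Rfc3, Rfc4, Rpa2, Pola1, Prim1, Lig1, Chaf1b, Dut and Tipin. They were taken by symbol from a list of genes with known roles in replication, chosen with earlier results of these data known, and all 33 had a row in every expression table. The tables held between 20465 and 46523 gene rows. The study profiled single cells of the postnatal mouse cortex and of mouse tumours labelled GBM (glioblastoma), with open chromatin (ATAC-seq) of sorted cortical cells. Cortical cells were sorted as GFP-positive and negative for the dead-cell stain 7-AAD, so each cortical library holds what the reporter marked and not the whole cortex.

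The droplet data came from 4 libraries, each a single sample. The PDGFRa-GFP cortex library (genotype label "PDGFRa normal; PDGFRa-gfp", postnatal days 1 to 3, Drop-seq) held 3184 cells. The hGFAP-GFP cortex library ("hGFAP normal; hGFAP-gfp", postnatal days 5 to 6, Drop-seq) held 815 cells, where its label states 2000. The dpi 25 tumour library (Drop-seq) held 4955 cells, where its label states 6796, and the dpi 35 tumour library (10x) held 6054. The labels do not spell out dpi, give no agent that induced the tumours and no tumour genotype beyond GBM. The dpi 25 record repeats the protocol of the sorted pups, and no sort is described for dpi 35. The Fluidigm C1 system, which captures cells singly in chambers of a chip, gave a PDGFRa-GFP table with 60 cells of P3 and 53 of P6, and an hGFAP-GFP table with 49 cells of P3 and 61 labelled P4/P6. The strain field of the C1 PDGFRa-GFP cells reads hGFAP-gfp, against their titles and genotype field, and the titles were followed. The stage or genotype fields of the ATAC-seq samples also differ from their titles, which give E14.5 and P5. No label names an animal, a pool or a litter. Each library and each C1 set was therefore 1 sample, no difference between conditions could be tested, and the 95% intervals given below cover counting error only.

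Before a cell divides, the helicase made of Mcm2 to Mcm7 is loaded at replication origins by Cdc6 and Cdt1 and later activated by Cdc45, the GINS complex and Mcm10. Polymerase alpha and primase (Pola1, Prim1) start each strand, the clamp Pcna is set on DNA by the Rfc loader, and Fen1 and Lig1 finish the lagging strand. Most of these genes are transcribed as cells pass from G1 into S under E2F transcription factors, so their transcripts mark dividing progenitors in the young cortex and dividing cells in glioma.

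The DNA before the start sites of 28 of the 33 genes was available from the RefSeq promoter table (GRCm38.p6), which covers 250 bases before to 50 after each start. Mcm4, Gins1, Gins2, Rfc2 and Tipin have no entry in it. The E2F-type motif was searched on both strands in 3 spellings. The first was TTGGCGC, the next was spelled TTCGCGC, and the last spelling searched was TTCCCGC. A match was found in 19 of 28 promoters (67.9%), against 9.20% of the 27025 genes of the table and 17.6% of those with at least 20 UMIs (unique molecular identifiers, counted transcripts) in the PDGFRa-GFP library. Matches can overlap, as those of the first 2 spellings, on opposite strands, do before Mcm5 and Mcm6. At least 2 matches stood in 11 promoters (39.3%), against 1.01% of all genes and 2.19% of those with at least 20 UMIs. The sequences below are shown because Mcm5 and Mcm6 are subunits of the helicase, Cdc6 loads it, and Hells and Cdca7 belong to the same chromatin remodeller. Capitals mark the matches, and each run covers 170 bases before the start, 5′ to 3′ in the direction of the gene.
Mcm5 chr8:75109339-75109508 (plus strand): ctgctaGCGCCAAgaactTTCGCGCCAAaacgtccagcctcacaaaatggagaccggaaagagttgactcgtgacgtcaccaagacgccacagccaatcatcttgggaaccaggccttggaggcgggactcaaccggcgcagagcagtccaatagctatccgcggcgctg
Mcm6 chr1:128359706-128359875 (minus strand): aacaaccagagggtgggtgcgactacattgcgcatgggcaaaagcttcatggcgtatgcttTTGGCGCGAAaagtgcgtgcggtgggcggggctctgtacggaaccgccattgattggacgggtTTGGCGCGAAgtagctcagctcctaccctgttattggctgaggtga
Cdc6 chr11:98907981-98908150 (plus strand): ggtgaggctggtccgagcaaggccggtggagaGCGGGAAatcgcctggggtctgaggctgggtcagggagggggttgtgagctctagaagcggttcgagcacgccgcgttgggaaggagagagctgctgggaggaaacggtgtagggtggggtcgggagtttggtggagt
Hells chr19:38930820-38930989 (plus strand): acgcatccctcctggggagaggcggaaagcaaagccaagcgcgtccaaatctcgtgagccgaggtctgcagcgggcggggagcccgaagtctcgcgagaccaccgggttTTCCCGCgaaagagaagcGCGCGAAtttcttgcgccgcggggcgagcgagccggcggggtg
Cdca7 chr2:72476049-72476218 (plus strand): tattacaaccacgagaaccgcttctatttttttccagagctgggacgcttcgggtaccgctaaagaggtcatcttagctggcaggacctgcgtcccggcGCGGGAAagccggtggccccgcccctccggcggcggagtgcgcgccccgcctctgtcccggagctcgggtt

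No match was found in the windows of Mcm2, Mcm10, Pcna, Tyms, Rrm2, Slbp, Cdc45, Ung and Dut, which says only that these letters are not there. The next 3 sequences are shown because Pcna and Rrm2 were found in the most cells of the dpi 25 tumour and Ung differed from the other genes along the cell cycle.
Pcna chr2:132253181-132253350 (minus strand): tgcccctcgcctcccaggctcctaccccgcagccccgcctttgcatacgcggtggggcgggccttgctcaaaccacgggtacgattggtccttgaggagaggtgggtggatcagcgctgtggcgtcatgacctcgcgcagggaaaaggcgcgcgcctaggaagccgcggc
Rrm2 chr12:24708084-24708253 (plus strand): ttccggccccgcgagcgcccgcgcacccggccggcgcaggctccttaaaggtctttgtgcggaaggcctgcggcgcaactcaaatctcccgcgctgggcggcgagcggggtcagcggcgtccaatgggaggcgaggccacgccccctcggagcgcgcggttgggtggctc
Ung chr5:114130265-114130434 (plus strand): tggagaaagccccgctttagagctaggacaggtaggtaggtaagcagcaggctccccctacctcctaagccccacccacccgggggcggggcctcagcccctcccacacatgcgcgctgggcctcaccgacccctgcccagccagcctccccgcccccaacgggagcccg

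Mcm6 had 5 matches, Pola1 had 4, and Mcm3 and Mcm5 had 3 each, over the whole 300 bases. Mcm7 had 4 and Lig1 had 3, counted over the windows of all their start sites together. The box CCAAT, on either strand, stood in 17 of 28 promoters (60.7%), against 41.1% of all genes and 43.9% of those expressed. TTTGAA, part of a motif of genes that peak later in the cycle, stood in 3 of 28 (10.7%). The share was 20.2% of all genes and 13.8% of those expressed. The median GC content of these promoters was 59.3%, against 52.7% for the whole table, and base composition was not matched in these shares. A match describes letters and not a bound site.

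The ATAC-seq peak list, a single list that the submitters named as pooled, with E14.5 and P5 PDGFRa-GFP cells as the samples by title, touched the start windows of 28 of 28 genes (100%), against 44.5% of all genes and 92.5% of expressed genes. The same windows moved by 20000 bases met a peak in 3.44% of genes. The peaks at these starts had a median fold enrichment of 10.1 (range 4.04 to 22.2), against 7.58 at all starts with a peak, as the authors' peak values. Dtl, the substrate receptor that marks Cdt1 for destruction, had the strongest peak (fold enrichment 22.2, −log10 q 50.6), and Hells the weakest (fold enrichment 4.04, −log10 q 2.51). A peak of this list can hold several summits. Any summit lay within 150 bases of a start for 26 of 28 genes (92.9%), against 81.3% of expressed genes, and that of the strongest entry for 22 of 28 (78.6%), against 67.3%. The list pools both ages, so it says nothing on a change between them.

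Median UMIs per cell were 2013.5 and 4167 in the PDGFRa-GFP and hGFAP-GFP cortex and 2063 and 6582 in the tumours of dpi 25 and dpi 35, and the libraries held between 4196024 and 51194749 UMIs. No barcode was shared between any pair of libraries, and no doublet caller was run. Levels are UMIs per 1000000 UMIs of the library (CPM). Markers of other cells differed between the libraries. The summed level of 5 myeloid genes (C1qa, C1qb, Csf1r, Fcer1g, Ctss) was 43.96, 3.57, 1186 and 11089 CPM in that order, with C1qb at 0 in the hGFAP-GFP library. The choroid plexus gene Ttr was at 10016 CPM in the PDGFRa-GFP library and had no UMI in the hGFAP-GFP library. The summed level of 4 neuronal genes (Stmn2, Meg3, Snap25, Syt1) was 1635, 799, 119 and 271 CPM, with none of them at 0. The part of these cells in the differences between libraries was not tested, beyond the value without such cells given below.

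The 33 genes together made up 3374 CPM of the PDGFRa-GFP library, 2540 CPM of the hGFAP-GFP library and 3255 CPM of the dpi 25 tumour, all by Drop-seq. They made up 1058 CPM of the dpi 35 tumour, read by another assay and set beside the others without a comparison. The summed level differed less between the 3 Drop-seq libraries, as a ratio, than the levels of genes such as Cdca7, Gins1 and Tipin did. It differed more than the levels of others, such as Mcm10, Mcm3 and Mcm6. Across genes the range ran from Mcm10 at 14.9 CPM to Cdca7 at 389.0 CPM in the PDGFRa-GFP library, and in dpi 35 from Cdc6 at 5.68 CPM to Pcna at 102.9 CPM. The counts behind these levels ran from 55 UMIs (Cdc45 in the hGFAP-GFP library) to 5266 UMIs (Pcna in dpi 35). Values below are in the order PDGFRa-GFP, hGFAP-GFP, dpi 25, dpi 35.

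Among the subunits of the helicase core, Mcm2 was at 75.1, 55.8, 102.0 and 27.9 CPM, and Mcm3 at 60.2, 58.4, 66.9 and 34.4 CPM. Mcm4 was at 56.3, 38.6, 69.0 and 20.9 CPM, so these subunits were highest in the dpi 25 library, within counting error of the cortex for Mcm3. Mcm5 was at 64.3, 41.5, 47.9 and 27.8 CPM, and Mcm6 at 84.9, 73.9, 83.8 and 35.3 CPM. Mcm7 was at 147.4, 144.7, 96.9 and 41.997 CPM, the lowest of the Drop-seq values standing in the tumour. The subunits of the ring thus did not share an order over the 3 Drop-seq libraries.

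Among the loading and firing factors, Cdc6 was at 18.7, 15.5, 15.3 and 5.68 CPM, and its Drop-seq values could not be told apart within their counting error. Gins1, a GINS subunit, was at 75.2, 158.2, 48.2 and 11.99 CPM and stood highest in the hGFAP-GFP library. Tipin, which protects stalled forks, was at 113.8, 102.0, 229.7 and 52.6 CPM. Tipin was thus near equal in both cortical libraries and higher in the dpi 25 tumour. Cdc45 was at 29.8, 13.1, 21.9 and 9.43 CPM and Cdt1 at 40.8, 23.6, 32.8 and 14.53 CPM, both highest in the PDGFRa-GFP cortex. Mcm10, Gins2 and Dtl lay between 14.9 and 59.2 CPM in the Drop-seq libraries, with Gins2 highest in dpi 25.

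The clamp Pcna was at 368.2, 200.9, 410.9 and 102.9 CPM. Of the genes that supply nucleotides, Rrm2, the cell-cycle-regulated subunit of ribonucleotide reductase, was at 212.0, 147.8, 316.7 and 44.6 CPM. Tyms, thymidylate synthase, was at 89.1, 52.7, 98.5 and 43.3 CPM, and Dut, which removes dUTP, at 203.8, 136.6, 237.4 and 84.7 CPM. These 4 genes had the same order over the Drop-seq libraries, with dpi 25 above PDGFRa-GFP above hGFAP-GFP. Rfc3 was at 173.4, 92.9, 110.7 and 28.5 CPM and Rfc4 at 71.9, 52.7, 104.5 and 26.9 CPM, so these clamp loader subunits were highest in different libraries. Lig1, the ligase, was at 218.6, 202.3, 158.95 and 59.97 CPM, and Prim1, the primase, at 120.5, 79.8, 122.3 and 19.3 CPM. Rfc2, Rpa2, Fen1, Pola1, Rrm1 and Ung lay between 18.4 and 137.8 CPM in the Drop-seq libraries, lowest for Ung and highest for Rrm1.

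Of the chromatin group, Hells, a remodeller needed for DNA methylation, was at 86.2, 85.8, 130.4 and 34.4 CPM, and Uhrf1, which reads newly copied DNA for methylation, at 55.3, 57.4, 40.97 and 23.7 CPM. Slbp, which binds histone transcripts, was at 124.2, 94.6, 100.7 and 54.7 CPM. These were at most 2-fold apart in the Drop-seq libraries, as was Chaf1b, of the chromatin assembly complex, between 15.7 and 23.5 CPM. Cdca7, the partner of Hells, was at 389.0, 210.2, 69.7 and 15.6 CPM. Hells and Cdca7, which act in 1 complex, therefore stood in opposite order between the cortical libraries and the dpi 25 tumour.

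**Figure D1:**
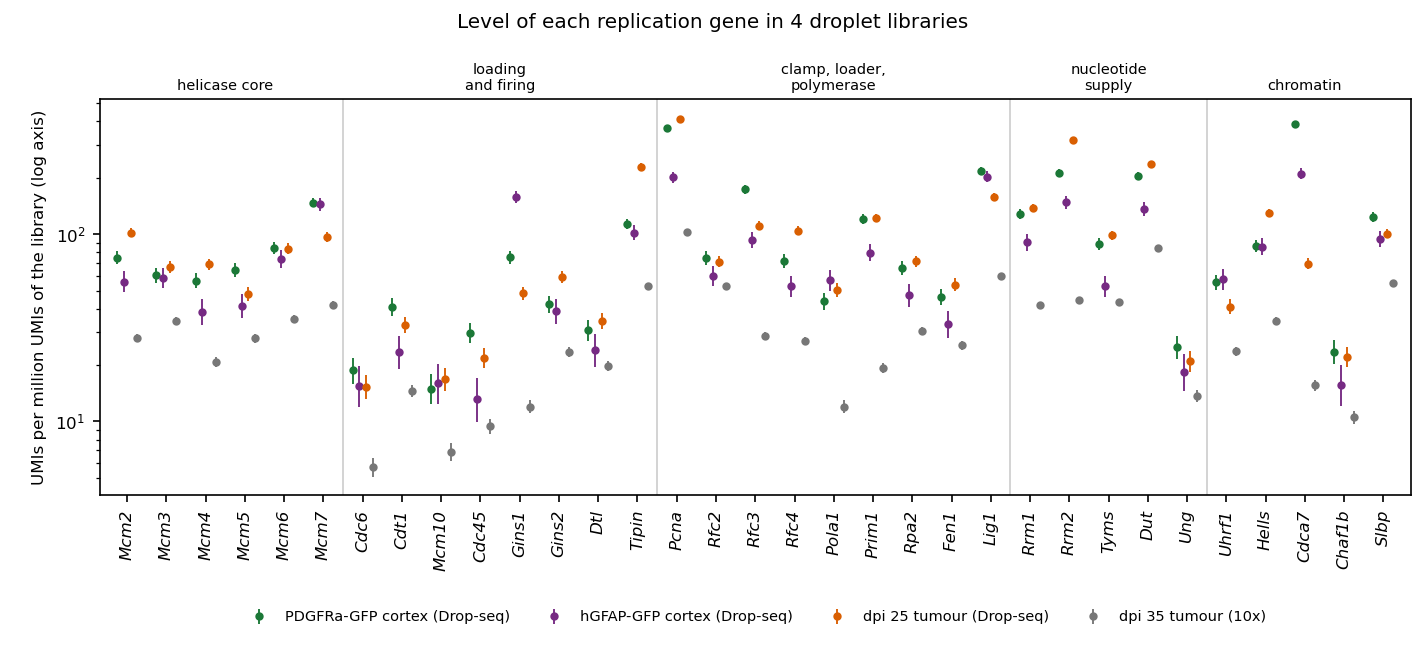
Level of each of the 33 genes (CPM, log axis) in the 4 droplet libraries, grouped by role; bars are exact Poisson 95% intervals, which cover counting error only. Cdca7 runs from 389.0 CPM in the PDGFRa-GFP library to 69.7 CPM in the dpi 25 tumour, and the 10x library (dpi 35) is another assay and is not comparable in level.

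The comparison of the 2 cortical libraries joins reporter and age (P1-3 PDGFRa-GFP against P5-6 hGFAP-GFP), which cannot be told apart here. The ratio PDGFRa-GFP over hGFAP-GFP was above 1 for 29 of 33 genes, where 52.5% of all 13555 genes with at least 20 UMIs were. The median log2 ratio was 0.44, against 0.04 over all genes. The interval lay above 0 for 22 genes, below 0 for 2 and spanned 0 for 9. Only Cdc45 was higher by 2-fold or more, with a log2 ratio of 1.18 (95% interval 0.76 to 1.63), where 4.85% of all genes were. Rfc3, a clamp loader subunit, followed at 0.90 (0.74 to 1.06), then Cdca7 at 0.89 (0.78 to 0.997) and Pcna at 0.87 (0.76 to 0.99). Gins1 was the gene lower by 2-fold or more, at −1.07 (−1.23 to −0.91), where 12.7% of all genes were. Pola1, the polymerase alpha catalytic subunit, was lower at −0.37 (−0.61 to −0.13), while Mcm10 at −0.10 (−0.54 to 0.36) and Uhrf1 at −0.05 (−0.28 to 0.18) spanned 0. All 6 helicase subunits had ratios above 1. So did Rrm1, Rrm2, Tyms and Dut of nucleotide supply, and Ung, which cuts uracil out of DNA.

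Other genes of replication and of the cell cycle, from lists that leave these 33 out, were less even in the same comparison. Of 47 further replication genes, 27 had a ratio above 1, with a median log2 ratio of 0.11. Cdc7, the kinase that fires origins, was at 1.46, Gmnn, the Cdt1 inhibitor, at 0.93 and Ctc1, of the telomere end complex, at 0.70, while Rfc1 was at −0.49, Pola2 at −0.44 and Asf1a at −0.36. Of 24 genes of G2 and mitosis, 14 had a ratio above 1, with a median of 0.20, from Aurka at 0.64, Ube2c at 0.60 and Cdk1 at 0.56 to Mki67 at −0.54, Cenpf at −0.47 and Cenpe at −0.46. Of 18 genes of the E2F and retinoblastoma pathway, 7 had a ratio above 1, with E2f7 at 0.72, E2f4 and Ccna2 at 0.43, and E2f5 at −0.92, E2f6 at −0.91 and Rbl2 at −0.57.

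Against the PDGFRa-GFP cortex, the dpi 25 tumour had a higher level of 18 of 33 genes, where 49.5% of 14162 genes were higher, and the median log2 ratio was 0.10. The intervals lay above 0 for 12 genes, below 0 for 10 and spanned 0 for 11, so the genes did not share a direction. Tipin was the gene higher by 2-fold or more (log2 ratio 1.01, 0.91 to 1.12), where 16.2% of all genes were. Hells at 0.60 (0.47 to 0.73), Rrm2 at 0.58 (0.50 to 0.66) and Rfc4 at 0.54 (0.40 to 0.68) came next. Cdca7 was the gene lower by 2-fold or more, at −2.48 (−2.59 to −2.37), where 16.6% of all genes were. Rfc3 at −0.65 (−0.76 to −0.54), Gins1 at −0.64 (−0.81 to −0.47) and Mcm7 at −0.60 (−0.72 to −0.49) were also lower. The others below 1 were Lig1, Cdc45, Uhrf1, Mcm5, Cdt1, Slbp, Cdc6, Ung, Chaf1b, Rfc2 and Mcm6, with log2 ratios between −0.46 and −0.02. Rfc3 and Rfc4, subunits of the same clamp loader, thus lay on opposite sides. Tumour state, age and preparation cannot be told apart in this comparison.

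The genes of G2 and mitosis stood apart from this in the same libraries: 21 of 24 were higher in the dpi 25 tumour, with a median log2 ratio of 0.64. The mitotic cyclin Ccnb2 was at 2.27, Hmmr at 1.62 and Plk1 at 1.36, while Top2a was at −0.28, Hmgb2 at −0.24 and Kif11 at −0.08. Of the 47 further replication genes, 25 were higher, with a median of 0.05, led by the histone chaperone Asf1b at 1.38, Orc5 at 1.04 and Pold2 at 0.77, and with Asf1a at −0.78, Nasp at −0.69 and Cdc7 at −0.49 lowest. Of the E2F and retinoblastoma genes 8 of 18 were higher, with Ccne2 at 0.83, Cdk2 at 0.76 and E2f4 at 0.56, and with Tfdp2 at −1.47, Cdc25a at −0.71 and E2f7 at −0.50.

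Against the hGFAP-GFP cortex, which uses the same tumour library again, 26 of 33 genes were higher in dpi 25, where 50.2% of 14187 genes were, and the median log2 ratio was 0.49. Higher by 2-fold or more were Tipin at 1.17 (1.02 to 1.32), Rrm2 at 1.10 (0.98 to 1.22) and Pcna at 1.03 (0.93 to 1.14), where 17.2% of all genes were, with Rfc4 next at 0.99 (0.78 to 1.20). Lower by 2-fold or more were Gins1 at −1.71 (−1.88 to −1.55) and Cdca7 at −1.59 (−1.73 to −1.45), where 20.5% of all genes were. Mcm7 at −0.58, Uhrf1 at −0.49, Lig1 at −0.35, Pola1 at −0.18 and Cdc6 at −0.01 were the others below 1. Of the genes named here, Tipin, Rrm2, Hells, Pcna and Rfc4 were above, and Cdca7, Gins1, Mcm7, Uhrf1 and Lig1 below, both cortical libraries, with intervals that left out 0.

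**Figure D2:**
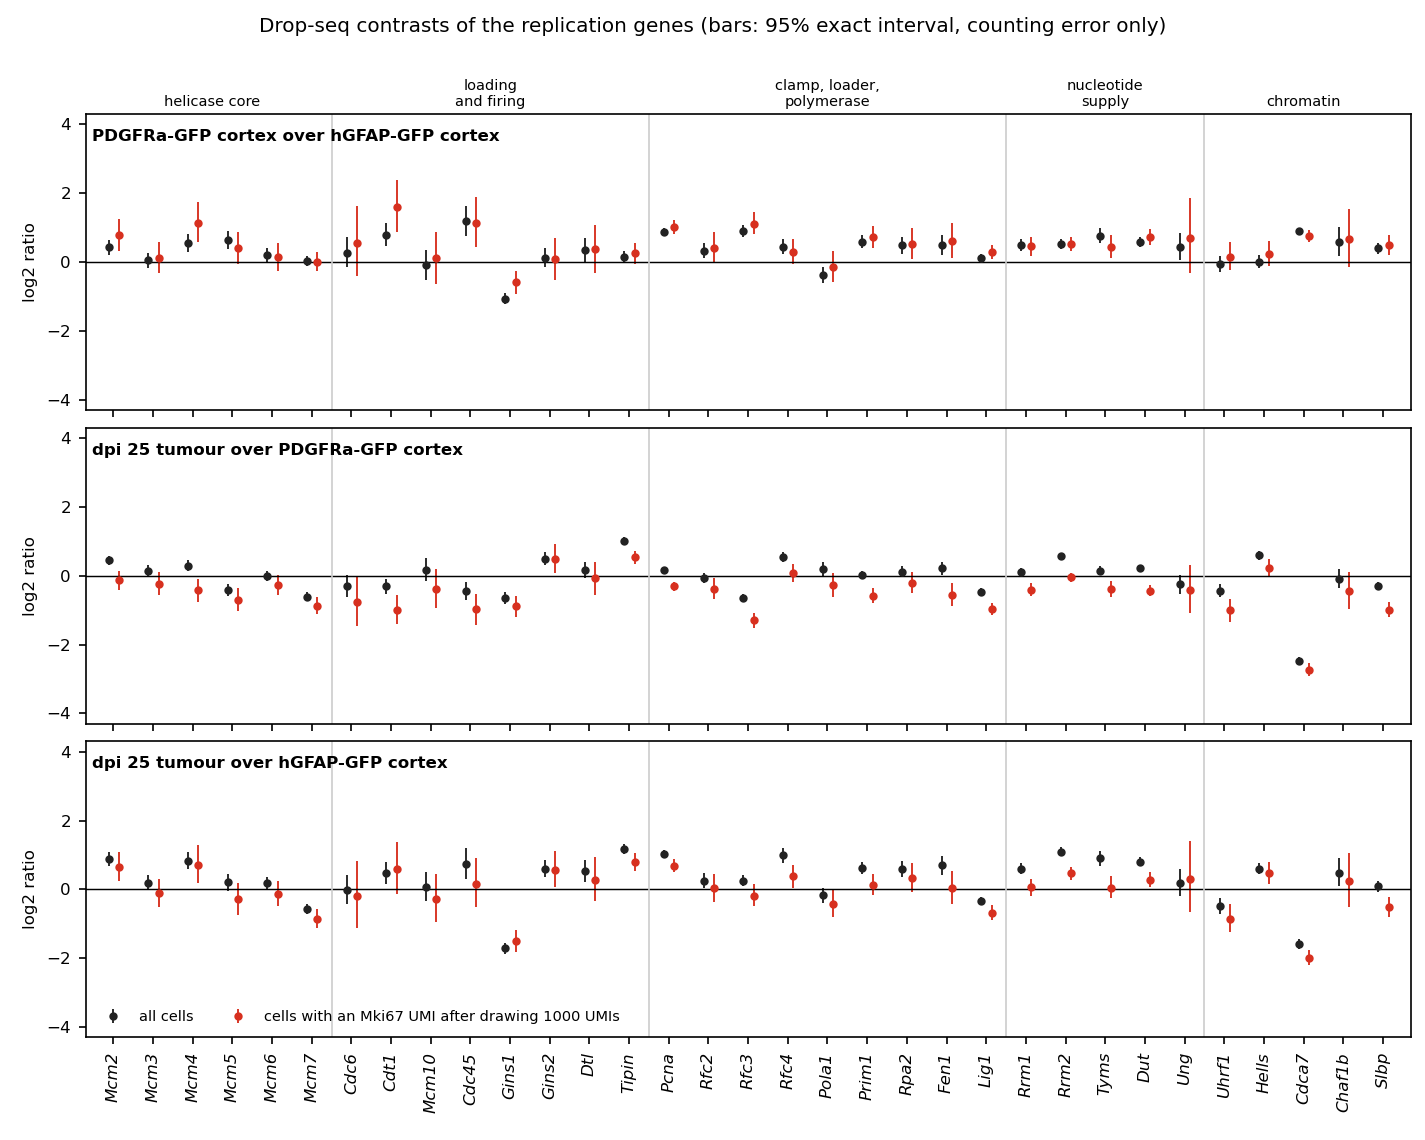
Log2 ratio of each of the 33 genes in the 3 Drop-seq comparisons, over all cells (black) and in cells with an Mki67 UMI after each cell was drawn down to 1000 UMIs (red); bars are exact 95% intervals, counting error only. In the middle panel the median is 0.10 over all cells and −0.40 in the Mki67 cells, with Cdca7 lowest in both.

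The share of cells in S phase genes was compared at a fixed depth, after each cell was drawn down to 1000 UMIs (500 PDGFRa-GFP cells were shallower and were left out). UMIs of at least 3 of the 33 genes were found in 32.9% of PDGFRa-GFP cells (Clopper-Pearson 95% interval 31.1 to 34.7), 27.6% of hGFAP-GFP cells (24.6 to 30.8), 46.8% of dpi 25 cells (45.4 to 48.2) and 13.1% of dpi 35 cells (12.2 to 13.9). Without drawing down, over all cells, the shares were 48.2%, 63.3%, 69.0% and 62.3%, in an order that depth sets in part. Cells with at least 2 of 4 neuronal genes, which should have left the cycle, gave 23.3%, 21.1%, 40.6% and 16.1%. In the Drop-seq libraries a large part of the share therefore lies at a level also seen in such cells. In dpi 35 the share was higher in such cells (16.1%) than over all cells (13.1%). The dpi 25 value rests on 64 cells (28.5 to 53.6). Mki67 was found in 12.5%, 15.8%, 28.1% and 9.72% of these neuronal cells, so they are not a clean set outside the cycle. Free RNA, doublets and progenitors with neuronal RNA were not told apart. The median depths of those neuronal cells were 1950.5, 3756, 2290.5 and 6758 UMIs, against 2341, 4167, 2063 and 6582 for all cells entered. Mature oligodendrocytes with at least 3 of 4 markers (Mog, Mag, Mobp, Cldn11) gave 8.16% of 49 cells in dpi 25 and 5.04% of 278 in dpi 35, and with at least 2 markers 38.2% of 204 cells and 12.6% of 1162. An Mki67 UMI was present in 15.5%, 17.3%, 27.9% and 6.94% of cells at the same depth.

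Single genes were found in few cells at 1000 UMIs. Pcna was found in 20.1%, 12.3%, 29.2% and 8.79% of cells, and Rrm2 in 12.4%, 10.6%, 22.6% and 4.10%. Cdca7 was found in 25.6%, 15.6%, 6.07% and 1.62% of cells, the most widely found of the 33 genes in both cortical libraries but not in the tumours. Mcm10 and Cdc6 were found in fewer than 2 in 100 cells of every library. The most genes found together in 1 cell were 15, 15, 13 and 11.

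Cells with at least 3 replication genes and cells with at least 3 of the 24 genes of G2 and mitosis overlapped to different degrees. In the PDGFRa-GFP library 19.3% of cells had both, 13.5% replication genes alone and 9.76% G2 and mitosis genes alone. In the hGFAP-GFP library the shares were 15.8%, 11.8% and 12.02%. In the dpi 25 tumour they were 36.8%, 10.1% and 24.4%, so cells with G2 and mitosis genes alone outnumbered those with replication genes alone, the reverse of the PDGFRa-GFP cortex. In dpi 35 they were 5.65%, 7.42% and 14.6%. Of the cells with G2 and mitosis genes, 66.5%, 56.8%, 60.1% and 27.96% also held at least 3 replication genes.

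The list was checked on Mki67, the proliferation marker, which is not among the 33 genes. Cells with an Mki67 UMI were compared with the other cells of the same library at full depth. Mki67 cells were 732 of 3184, 238 of 815, 2178 of 4955 and 1515 of 6054, and were deeper (median 3359 against 1780.5 UMIs in the PDGFRa-GFP library, and 8113 against 6213 in dpi 35). The level was higher in Mki67 cells for 32, 32, 30 and 33 of 33 genes in the 4 libraries, where 33%, 33.6%, 41.6% and 55.1% of all genes were. It was higher by 2-fold or more for 21, 19, 0 and 24 of them, where 4.82%, 4.91%, 2.39% and 4.67% of all genes were. The median log2 ratios were 1.12, 1.10, 0.28 and 1.23, so the split was weakest in the dpi 25 tumour, the library with the largest share of Mki67 cells. Rrm2 had the highest ratio of the 33 in every library, at 2.24, 2.53, 0.88 and 2.60. Tyms was at 1.69, 2.14, 0.56 and 1.98, and Rrm1, the large subunit of ribonucleotide reductase, at 1.67, 1.87, 0.77 and 1.97. Cdc45 was at 1.93, 2.16, 0.79 and 1.76, and Mcm10 at 1.84, 1.95, 0.63 and 2.08. The helicase subunits were lower in this split, from 0.58 (Mcm6) to 0.95 (Mcm5) in the PDGFRa-GFP library and from −0.13 (Mcm4) to 0.21 (Mcm5) in dpi 25. Ung, which cuts uracil out of DNA, was at −0.03, −0.19, −0.52 and 0.55, the exception in 3 of 4 libraries. Cdc6 was at −0.29 in dpi 25 and 1.19, 0.21 and 1.23 elsewhere.

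Within Mki67 cells the genes were not all alike. Mki67 cells with at least 2 of 5 mitotic genes (Cdc20, Ccnb1, Plk1, Cenpe, Aurka) were 407, 142, 1344 and 845, and were deeper than the other Mki67 cells (median 3991 against 2724, 7333.5 against 4859, 2589.5 against 1949 and 9562 against 6949 UMIs). In them 33, 30, 32 and 24 of 33 replication genes were lower, where 44%, 44.6%, 43.3% and 57.8% of all genes were higher, with median log2 ratios of −0.92, −0.63, −0.59 and −0.20. Lower by 2-fold or more were 14, 11, 6 and 3 of them, where 3.39%, 5.93%, 5.49% and 2.36% of all genes were. Ung was the lowest in every library, at −3.65 (−4.85 to −2.63), −2.70 (−4.18 to −1.41), −2.47 (−3.18 to −1.81) and −1.80 (−2.18 to −1.44). In the PDGFRa-GFP library its level was 4.88 CPM in the mitotic cells (9 UMIs) and 61.2 CPM in the other Mki67 cells (61 UMIs), a difference that the split by Mki67 alone did not show. The loading factor Cdc6 was also among the lowest, at −2.21, −1.74, −1.32 and −1.15, and its partner Cdt1 was at −1.75, −1.02, −0.90 and −0.72. Mcm2 was at −1.73, −0.81, −0.68 and −0.59, and Dtl at −1.08, −1.62, −1.32 and −1.15. The ribonucleotide reductase subunits lay at the other end, with Rrm1 at −0.13, 0.14, 0.41 and 0.69, and Rrm2 at −0.44, 0.04, −0.00 and 0.25. Rfc4 was at −0.14, −0.23, −0.05 and 0.29. Ung, Cdc6 and Cdt1 were thus lower in the mitotic cells of all 4 libraries, with intervals that left out 0, while Rrm1 was not lower beyond its interval in any. Ung and Cdc6 had fewer than 100 UMIs in either group of every library except Ung in dpi 35.

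**Figure D3:**
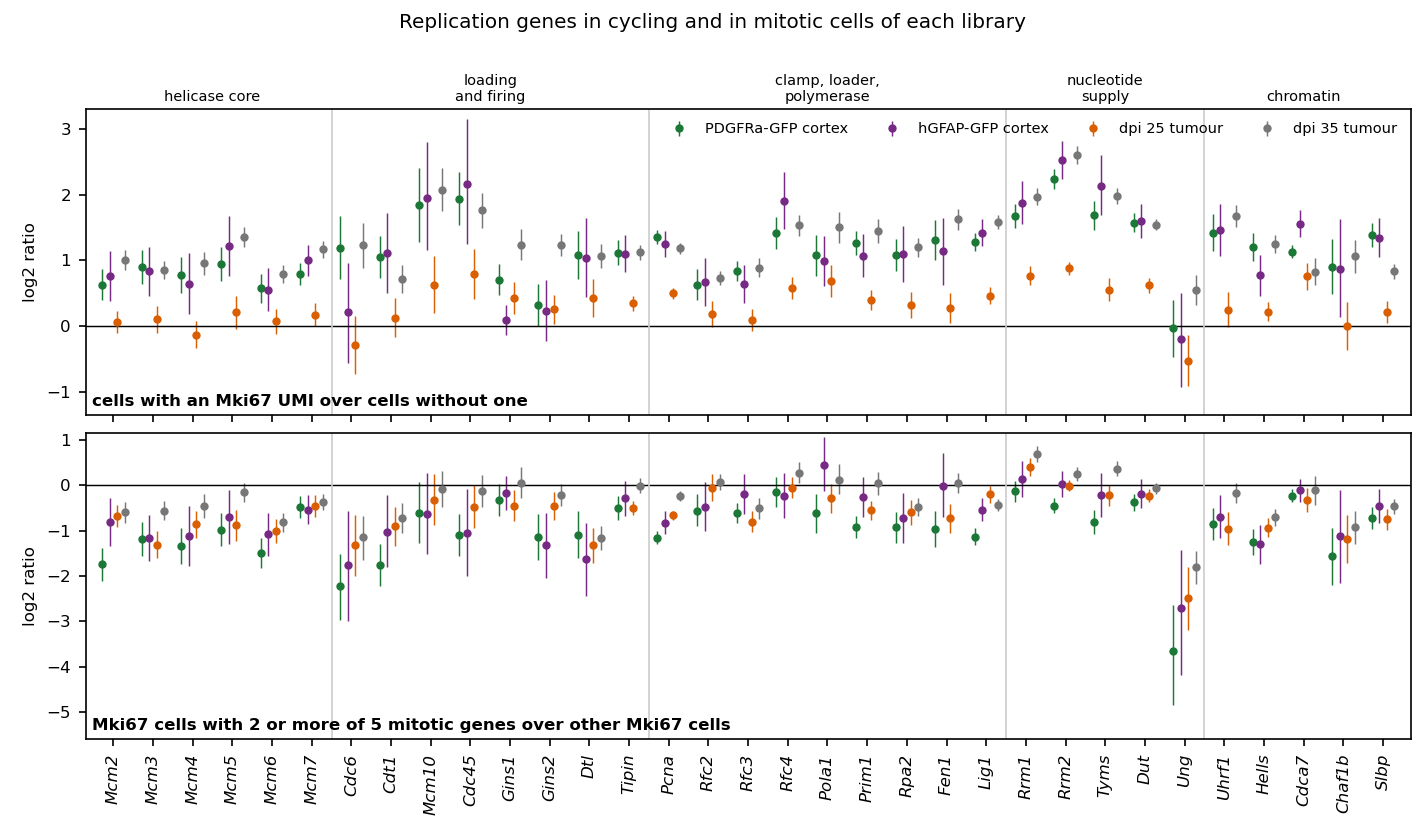
Log2 ratio of each of the 33 genes in Mki67 cells over other cells (top) and, among Mki67 cells, in those with at least 2 of 5 mitotic genes over the rest (bottom), in each droplet library; bars are exact 95% intervals, counting error only. In the top panel Rrm2 is highest in each library, and in the bottom panel Ung is lowest in each, from −3.65 to −1.80, with Cdc6 among the lowest.

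Since the libraries differ in their share of Mki67 cells, the Drop-seq comparisons were repeated within Mki67 cells and within the rest. This split was chosen after the first values were seen. Mki67 was read after each cell was drawn down to 1000 UMIs, and the levels came from all UMIs of the chosen cells. In Mki67 cells of dpi 25 over those of the PDGFRa-GFP cortex, 4 of 33 genes were higher, where 55.5% of all genes were, and the median log2 ratio was −0.40. Those 4 were Tipin at 0.53, Gins2 at 0.49, Hells at 0.23 and Rfc4 at 0.08, while Cdca7 was at −2.73, Rfc3 at −1.29, Uhrf1 at −1.004 and Cdt1 at −0.99. In cells without Mki67, 20 of 33 were higher, where 50% of all genes were, with a median of 0.19. Over all cells, the lower level in Mki67 cells stood beside a larger share of such cells in the tumour (27.9% against 15.5%). Without cells of Tyrobp, neuronal or mature oligodendrocyte markers, the median over all cells was −0.04. Between the cortical libraries 31 of 33 genes were higher in PDGFRa-GFP Mki67 cells (59.8% of all genes, median 0.46) and 28 in the rest (50.8%, median 0.41). Single genes differed more between these groups, with Tyms at 0.44 (0.10 to 0.78) in Mki67 cells and 1.12 (0.82 to 1.43) in the rest, and the difference between the groups was not tested. For dpi 25 over hGFAP-GFP, 20 were higher in Mki67 cells (60.4%, median 0.06) and 27 in the rest (49.6%, median 0.57).

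Lineage was read from 1 marker each: Olig1 for oligodendrocyte precursors, Dlx2 for interneuron progenitors, Eomes for intermediate neuronal progenitors, Slc1a3 for astrocytes and radial glia, and Tyrobp for microglia and macrophages, with at least 1 UMI. A cell with 2 markers counts in both. Cells with a marker were 1404 (Olig1), 1086 (Dlx2) and 588 (Slc1a3) in the PDGFRa-GFP library. In the hGFAP-GFP library they were 297 (Olig1), 183 (Dlx2), 114 (Eomes) and 433 (Slc1a3). In dpi 25 they were 3857 (Olig1), 1158 (Slc1a3) and 391 (Tyrobp), and in dpi 35 they were 4157 (Olig1), 2704 (Slc1a3) and 4521 (Tyrobp). In dpi 35 Olig1 was found in 68.7% and Tyrobp in 74.7% of cells, so a single UMI does not separate lineages there. In dpi 25 Olig1 was found in 77.8% of cells. In Olig1 cells of the hGFAP-GFP library, the 5 support genes of Olig1 summed to 939 CPM and those of Slc1a3 to 7009 CPM. Over all cells of that library these sums were 433 and 5306 CPM. Its Olig1 cells thus also carried astrocyte and radial glia genes. The remaining marker groups held under 50 cells, and Dlx2 has no row in the dpi 25 table.

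In both cortical libraries the replication genes were lower in Olig1 cells than in the rest. The share of cells with at least 3 of them at 1000 UMIs was 24.4% with Olig1 and 40.3% without in the PDGFRa-GFP library, and 17.5% and 33.4% in the hGFAP-GFP library. Without drawing down, these shares were 47.2% and 59.3%, and 60.9% and 64.7%. All droplet shares by marker, here and below, leave out the 500 PDGFRa-GFP cells under 1000 UMIs, also without drawing down. The median depths were 2732 and 2074 UMIs, and 5254 and 3696 UMIs. The level was lower in Olig1 cells for 32 of 33 genes in each, where 56% and 49% of all genes were higher, with median log2 ratios of −0.59 and −0.53. Lower by 2-fold or more were 1 and 2 of them, where 7.04% and 8.02% of all genes were. The exceptions were Ung at 0.02 in the PDGFRa-GFP library and Cdt1 at 0.29 in the hGFAP-GFP library. Cdca7 stood apart: it was at 148.1 CPM with Olig1 and 630.8 CPM without in the PDGFRa-GFP library (log2 ratio −2.09, −2.22 to −1.96), and at 61.6 and 320.4 CPM in the hGFAP-GFP library (−2.38, −2.68 to −2.09). Next in the PDGFRa-GFP library were Rrm2 at −0.96, Pola1 at −0.95 and Mcm7 at −0.86. Next in the hGFAP-GFP library were Fen1 at −1.20, Hells at −0.97 and Rrm2 at −0.85. Nearest to 0 were Tipin at −0.18, Rfc2 and Uhrf1 at −0.22 in the former, and Mcm5 at −0.00, Gins1 at −0.03, Gins2 at −0.24 and Mcm2 at −0.25 in the latter.

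With Olig1 read from 1 UMI, the direction was the opposite in both tumour libraries. At least 3 of the genes were found in 50.5% of Olig1 cells and 33.97% of the rest in dpi 25, and in 15.9% and 6.85% in dpi 35. Without drawing down, the shares were 73.4% and 53.4%, and 68.9% and 47.8%, at median depths of 2140 and 1868 UMIs, and 6555 and 6642 UMIs. All 33 genes were higher in Olig1 cells in each, where 58.7% and 65.2% of all genes were, with medians of 0.53 and 0.72. Higher by 2-fold or more were 1 in dpi 25 and 5 in dpi 35, where 4.81% and 21.1% of all genes were. In dpi 25 the highest were Cdc6 at 1.27 (0.55 to 2.08), Chaf1b, a histone chaperone of new chromatin, at 0.94, Cdc45 at 0.88 and Tipin at 0.87, and the lowest Gins1 at 0.06, Slbp at 0.25, Mcm6 at 0.30 and Mcm10 at 0.32. In dpi 35 the highest were Dut at 1.33 (1.21 to 1.46), Pola1 at 1.29, Rfc4 at 1.13 and Tipin at 1.02, and the lowest Slbp at 0.12, Mcm3 at 0.13, Gins2 at 0.15 and Fen1 at 0.17. The cells without Olig1 differ between the libraries: the summed neuronal level in Dlx2 cells was 2304 CPM in the PDGFRa-GFP library, and the myeloid level over all cells 1186 CPM in dpi 25 and 11089 CPM in dpi 35. The comparison group therefore moves with the direction, and its part was not tested. The direction in dpi 25 did not hold when lineage was asked of at least 3 of the marker and 5 support genes. With that rule, at least 3 replication genes were found in 45.2% of 1150 Olig1 cells and 47.3% of the rest, and 17 of 33 genes were higher, with a median of 0.003. The shares by this rule were 18.2% and 12.4% in dpi 35 and 13.6% and 35.8% in the PDGFRa-GFP cortex, and the hGFAP-GFP library had under 50 such cells.

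Dlx2 cells had the largest shares of the marker groups of 50 or more cells in the cortical libraries. The share with at least 3 genes was 51.4% (48.2 to 54.6) against 22.3% of cells without Dlx2 in the PDGFRa-GFP library, and 48.1% (40.7 to 55.6) against 21.7% in the hGFAP-GFP library. Without drawing down, the shares were 72% against 43.2%, and 80.3% against 58.4%. The summed level of the 4 neuronal genes was 2304 CPM in Dlx2 cells and 504 CPM in Olig1 cells of the PDGFRa-GFP library, and 1440 and 184 CPM in the hGFAP-GFP library. The level of the replication genes was higher for 33 of 33 and 32 of 33 genes, where 38.7% and 38% of all genes were, with medians of 1.03 and 0.87. Higher by 2-fold or more were 19 and 10 of them, where 4.28% and 4.28% of all genes were. The exception was Gins1 at −0.06 in the hGFAP-GFP library. Cdca7 was at 718.2 CPM against 181.3 CPM (1.99, 1.87 to 2.10) and at 462.1 against 125.0 CPM (1.89, 1.69 to 2.08). Rrm2 followed at 1.71 and 1.52, then Chaf1b at 1.50 and Cdc45 at 1.35 in the PDGFRa-GFP library, and Rrm1 at 1.26 and Pola1 at 1.21 in the hGFAP-GFP library. Lowest in the PDGFRa-GFP library were Rfc2 at 0.54, Gins2 and Ung at 0.61 and Gins1 at 0.64. With at least 3 of the 6 genes of the Dlx2 list the picture changed: 13 of 33 genes were higher in the PDGFRa-GFP library, with a median of −0.06, and the share of cells with at least 3 replication genes was 35.9%, against 32.3% of the rest. In the hGFAP-GFP library 47 cells met this rule, and 27.7% of them had at least 3 replication genes, against 27.6% of all cells. The list adds Dlx1, Dlx5, Dlx6, Gad1 and Gad2 to Dlx2 itself.

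Eomes cells could be read in the hGFAP-GFP library. At least 3 of the genes were found in 37.7% of them (28.8 to 47.3) and in 25.96% of the rest (73.7% and 61.6% without drawing down), and 28 of 33 genes were higher, where 45.7% of all genes were, with a median of 0.56. Hells was at 0.95 (144.1 against 74.4 CPM), Rpa2, which coats single-stranded DNA, at 0.82, Mcm6 at 0.78 and Rfc3 at 0.76. Mcm4 at −0.47, Gins2 at −0.40, Cdt1 at −0.37, Pola1 at −0.19 and Rfc4 at −0.11 were below 0, each with an interval that spanned 0. In the 50 cells with Eomes and none of the other markers, the difference was smaller: 18 of 33 genes were higher, with a median of 0.098, and at least 3 genes were found in 28% of them and 27.6% of the rest.

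Slc1a3 cells, read from 1 UMI, had shares nearer to the rest than Olig1 cells did in the Drop-seq libraries. At least 3 genes were found in 36.3% against 31.98% (PDGFRa-GFP), 24.9% against 30.6% (hGFAP-GFP), 51.9% against 45.3% (dpi 25) and 15.8% against 10.8% (dpi 35). Without drawing down, the shares were 58.9% against 52.4%, 60.5% against 66.5%, 75.7% against 66.9% and 69.1% against 56.7%. The level was higher for 22, 13, 25 and 33 of 33 genes, where 56.3%, 54.2%, 52.4% and 66% of all genes were, with medians of 0.12, −0.06, 0.08 and 0.43. Cdca7 was again lowest in the cortical libraries, at −0.78 and −0.94, while Mcm4 was highest in the first at 0.47 and Rpa2 in the second at 0.83. In dpi 25 Rpa2 was highest at 0.34 and Ung lowest at −0.54, and in dpi 35 Mcm10 was highest at 0.89 and Gins2 lowest at 0.10. With at least 3 genes of the Slc1a3 list the direction turned in the PDGFRa-GFP library (3 of 33 higher, median −0.60) and in dpi 25 (11 of 33, median −0.17). In the hGFAP-GFP library all 33 genes were lower by this rule, with a median of −1.32, and at least 3 genes were found in 12.2% of 205 cells and 32.8% of the rest.

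Tyrobp cells had the fewest replication transcripts of the 3 marker groups read in dpi 25. At least 3 genes were found in 22.8% of them (18.7 to 27.2) and 48.9% of the rest (43.5% and 71.2% without drawing down), and all 33 genes were lower, where 31% of all genes were higher, with a median of −0.83. Lower by 2-fold or more were 11, where 31% of all genes were. Tipin was at 66.2 against 244.9 CPM (−1.89, −2.27 to −1.53), Rfc4 at −1.64, Mcm7 at −1.61 and Rrm2 at −1.56. Nearest to 0 were Rfc2 at −0.19, Ung at −0.21, Slbp and Pola1 at −0.33. In dpi 35 the shares were 11.2% and 18.5% (59.7% and 69.7% without drawing down), and 31 of 33 genes were lower, where 31.1% of all genes were higher, with a median of −0.60. Only Rfc4 was lower by 2-fold or more, where 18.2% of all genes were. It was at −1.01, Dut at −0.97, Prim1, the primase, at −0.92 and Pola1 at −0.82, while Mcm3 at 0.03 and Gins2 at 0.12 lay on the other side. Rfc4 was among the lowest in both tumours.

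**Figure D4:**
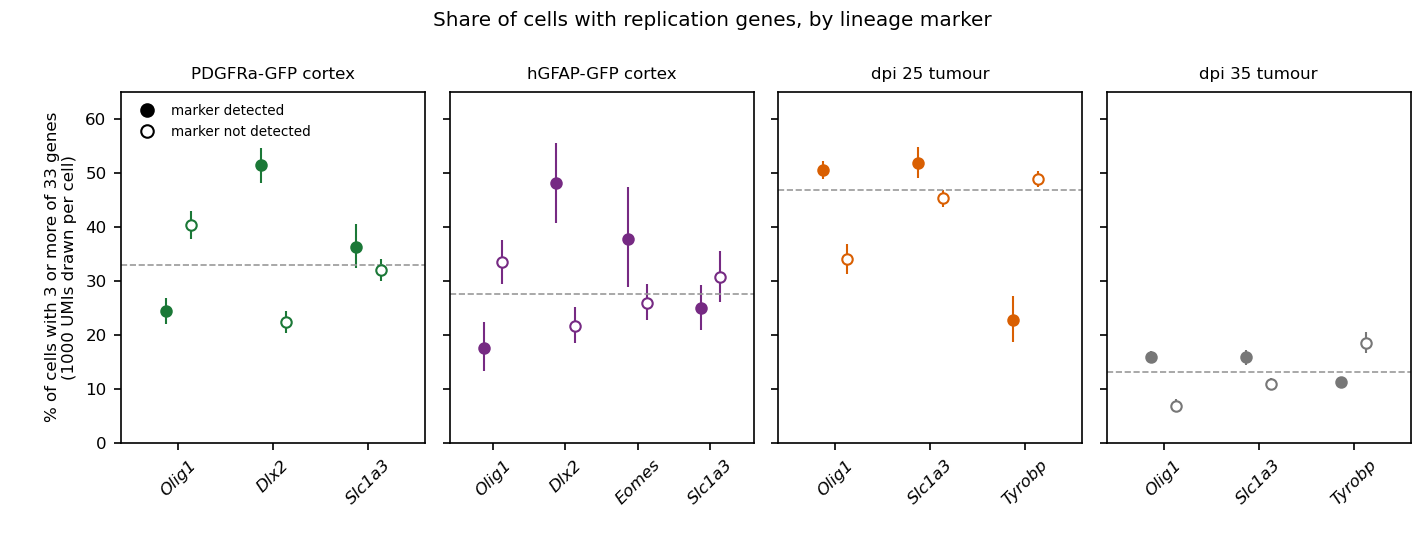
Share of cells (percent) with UMIs of at least 3 of the 33 genes, at 1000 UMIs per cell, in cells with a lineage marker (filled) and without it (open) in each droplet library; bars are Clopper-Pearson 95% intervals, counting error only, and dashed lines the share over all cells. Olig1 cells lie below the rest in both cortical libraries (24.4% and 17.5%) and above it in both tumours (50.5% and 15.9%).

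The C1 tables give TPM (transcripts scaled to a fixed total per cell), and each table was normalised by itself, so no level is compared between the PDGFRa-GFP and hGFAP-GFP tables. Read counts were not used, so the depth behind each value is unknown. A median of 4124.5 and 5591 genes was detected in PDGFRa-GFP cells of P3 and P6, and 3768 and 3405 in hGFAP-GFP cells of P3 and P4/P6. The 33 genes summed to a mean of 3116 and 1591 TPM in the PDGFRa-GFP sets and 3821 and 4146 TPM in the hGFAP-GFP sets. Tyrobp was listed at 0 in every C1 cell, as were all 5 myeloid support genes in the hGFAP-GFP table and 4 of 5 in each PDGFRa-GFP set.

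PDGFRa-GFP cells had lower replication transcripts at P6 than at P3. The mean TPM was lower at P6 for 29 of 33 genes, where 58.1% of 15737 genes were higher, and the median log2 ratio of mean (TPM + 1) was −1.14, against 0.32 over all genes. Lower by 2-fold or more were 21 of 33, where 20.5% of all genes were. Cdc45 was at 39.5 TPM at P3 and 0.263 TPM at P6 (log2 ratio −5.00), Mcm5 at 58.5 and 5.59 TPM (−3.17), Mcm2 at 51.8 and 7.10 TPM (−2.70) and Dut at 107.7 and 21.6 TPM (−2.26). In mean TPM, Mcm4 (36.9 and 60.1 TPM, 0.69), Slbp (0.34), Mcm10 (0.16) and Hells (0.06) were higher at P6. Their shares of cells at 10 TPM or more were lower at P6 for Mcm4 (25% and 20.8%), Mcm10 (13.3% and 5.66%) and Hells (25% and 15.1%). For Slbp the shares were 46.7% and 47.2%. The highest P6 cell held 1177 TPM of Mcm10, which weighs on its mean. Cdca7 was at 296.9 and 95.1 TPM, and cells with it at 10 TPM or more were 36 of 60 at P3 and 9 of 53 at P6. Tyms kept a similar share of cells at 10 TPM, 63.3% and 64.2%, where the median over the 33 genes was 26.7% and 15.1%. It was also above 0 TPM in every cell of both sets (lowest 0.54 and 0.34 TPM), and the part of this floor in its share was not tested. Of 24 genes of G2 and mitosis, 19 were lower, with a median of −1.14, led by Aurka at −2.85, and 31 of 47 further replication genes were lower, led by Rfc5 at −3.29. Olig1 was at 10 TPM or more in 14 of 60 cells at P3 and 41 of 53 at P6, and Dlx2 in 24 and 9 cells. The summed level of the 5 support genes of Olig1 was 199 TPM at P3 and 646 TPM at P6, that of Dlx2 639 and 213 TPM, and that of the 4 neuronal genes 890 and 536 TPM, with none of these genes at 0 in every cell. The part of this change in cells was not tested beyond the Olig1 split. Within Olig1 cells 28 of 33 genes were lower (63.9% of all genes higher, median −1.25), and in cells under that level 20 were lower (44.1%, median −0.33). Day cannot be told apart from any other difference between the P3 and P6 sets.

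The hGFAP-GFP cells showed no shared direction between P3 and P4/P6. The mean TPM was higher for 15 of 33 genes, where 50.6% of 12564 genes were, with a median log2 ratio of −0.13 and with 8 higher and 5 lower by 2-fold or more, where 25.7% and 26.1% of all genes were. Dtl was at 7.92 TPM at P3 and 37.9 TPM at P4/P6 (2.125), Rfc4 at 52.9 and 166.9 TPM (1.64), Fen1 at 48.6 and 148.3 TPM (1.59) and Gins1 at 92.9 and 259.3 TPM (1.47). Cdc6 was at 28.9 and 7.66 TPM (−1.79), Rpa2 at 157.7 and 62.8 TPM (−1.32), Mcm2 at 99.7 and 42.9 TPM and Rfc2 at 298.5 and 129.4 TPM (both −1.20). Single cells weigh on some of these means. The highest P4/P6 cell held 8375 TPM of Gins1, and the highest P3 cells held 3207 TPM of Rpa2 and 2128 TPM of Fen1. The shares of cells at 10 TPM or more were 20.4% and 22.95% for Gins1, and 22.4% and 16.4% for Rpa2. For Fen1 they were 14.3% and 22.95%. The median was 0.13 when the log2 values of cells were averaged in place of the TPM. Within Olig1 cells (22 of P4/P6 and 19 of P3) it was 0.92, and in the other cells −0.13, with 15 of 33 higher. The sign of the median thus depends on the measure and on the cells chosen. Markers also differed between these sets. The summed level of the 5 Slc1a3 support genes was 20092 TPM at P3 and 4295 TPM at P4/P6, that of Dlx2 33.9 and 207.7 TPM, and that of the 4 neuronal genes 47.6 and 597 TPM, with 1 neuronal gene listed at 0 in every P3 cell. The part of these cells in the values was not tested beyond the Olig1 subset. Of the G2 and mitosis genes 11 of 24 were higher (median −0.01), and of the further replication genes 25 of 47 (median 0.06).

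**Figure D5:**
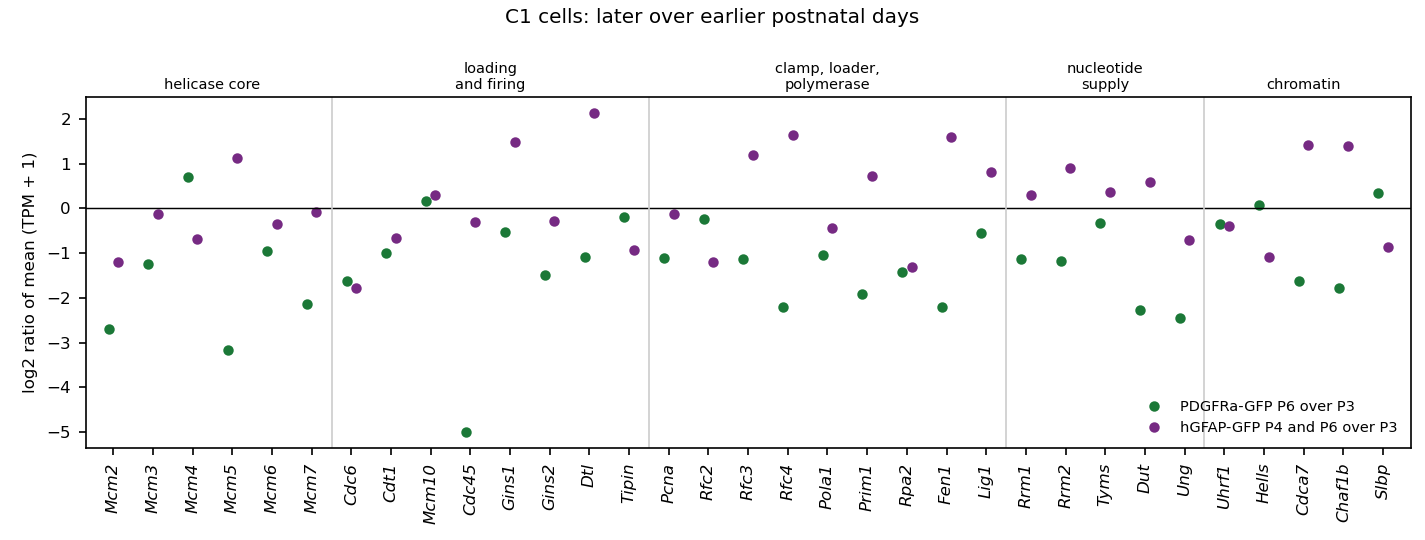
Log2 ratio of mean TPM (pseudocount 1) of each of the 33 genes in C1 cells, PDGFRa-GFP P6 over P3 (green) and hGFAP-GFP P4 and P6 over P3 (purple), with no error bars because each set is 1 sample. The green points lie below 0 for 29 of 33 genes, with Cdc45 at −5.00, and the purple points lie on both sides.

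C1 cells with Mki67 at 10 TPM or more expressed many of the 33 genes together. Their median number of genes at 10 TPM was 17.5, 20 and 18 in the PDGFRa-GFP P3, hGFAP-GFP P3 and hGFAP-GFP P4/P6 sets (12, 11 and 19 cells), against 4, 3 and 4 in the other cells. PDGFRa-GFP P6 had only 6 such cells and was not split. In Mki67 cells 30, 30 and 29 of 33 genes were higher, where 35.8%, 39% and 42.4% of all genes were, with median log2 ratios of 1.77, 2.37 and 1.89. Higher by 2-fold or more were 23, 27 and 26, where 19.2%, 22.4% and 23.6% of all genes were. Rrm2 was at 861 against 98.7 TPM, 1157 against 26.3 TPM and 1247 against 199 TPM. Among the 12 cells with Dlx2 at 10 TPM in hGFAP-GFP P4/P6 the median was 21.5 genes, against 4 in the other 49, and in PDGFRa-GFP P3 it was 7.5 in 24 Dlx2 cells and 4.5 in the other 36. At least 3 genes at 10 TPM were found in 85.0%, 79.2%, 71.4% and 85.2% of cells of the 4 sets, a share too near its ceiling to separate them.

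Some values rest on genes that share sequence or position with others. RefSeq lists pseudogenes named after Pcna and Tyms, and 8 of the 33 genes overlap another coding gene: Mcm7 with Ap4m1, Gins2 with Gse1, Cdc45 with Ufd1, Dtl with Ints7, Fen1 with Tmem258, Ung with Alkbh2, Rfc4 with Eif4a2 and Lig1 with Zswim9. Overlaps with genes of other kinds include those of Gins1 with the pseudogene Gm20550 and Pola1 with the pseudogene Gm14780. Pola1 also overlaps the long noncoding RNA gene Gm35587, and Cdc45 overlaps Gm52240, of the same kind. How the submitters assigned reads shared in this way is not given in the sources used here, so the levels of these genes are less certain. Among them are Tyms in C1 cells, the Gins1 and Pola1 ratios between libraries and the Rfc4 ratios in the tumours.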

How the data were processed

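The authors deposited Drop-seq tables whose values are a signal, UMIs scaled to a sum of 10000 per cell, per the values in the files. All values came out whole within 0.1 UMI, and those recovered UMIs were used. The 10x table holds UMI counts as deposited, and the C1 tables hold TPM, as the authors made them. Fold enrichment (a ratio) and −log10 q come from the authors' deposited peak list, with mm10 coordinates. STAR, RSEM, Cell Ranger, Bowtie2 and MACS2 2.12 are named, per the submitters' processing notes, which give builds mm10 and rn5.

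From these, CPM with exact Poisson intervals, ratios with exact conditional intervals and shares with Clopper-Pearson intervals (95%) were computed in Python 3.11.15 with SciPy 1.17.1, and the scripts were tested on simulated data. Genes with at least 20 UMIs over both groups were compared, or a mean of 1 TPM in C1, with a pseudocount of 1. Cells were drawn down to 1000 UMIs with a fixed seed. Cells in the files were used as deposited, without further filter or doublet removal. The 33 genes, the marker lists and the other gene lists were chosen with earlier results of these data known. The genes named with values are the helicase subunits, Pcna, Rrm2, Tyms, Cdc6, Slbp, Dut, Hells and Uhrf1 in each library and, in each comparison, the 4 highest and 4 lowest ratios with at least 100 UMIs in the higher group (10 TPM in C1), every gene on the other side of 1 from the median, and the 3 highest and 3 lowest of other lists. Others named were chosen after their values were seen. Alternatives covered depth, thresholds, marker rules, top genes and cells, and subsets of cells.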

Additional observations from a re-analysis of the deposited data

Results flagged for a closer look

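The share of cells with at least 3 of the 33 genes moved with Olig1 in opposite directions in cortex and tumour. With Olig1 minus without it, the difference was −15.9 percentage points in the PDGFRa-GFP cortex (24.4% against 40.3%) and −15.9 points in the hGFAP-GFP cortex (17.5% against 33.4%). It was 16.5 points in the dpi 25 tumour (50.5% against 33.97%) and 9.05 points in the dpi 35 tumour (15.9% against 6.85%). The direction in the dpi 25 tumour did not hold when lineage was read from at least 3 of the marker and 5 support genes, where the difference was −2.12 points (45.2% against 47.3%). By that rule the difference was −22.2 points in the PDGFRa-GFP cortex and 5.77 points in the dpi 35 tumour, and the hGFAP-GFP cortex had under 50 such cells. Each library is 1 sample, so the difference between cortex and tumour was not tested. Dlx2 cells, read from 1 UMI, are the group richest in replication transcripts in both cortical libraries. By at least 3 genes of the Dlx2 list, the share was 35.9% against 32.3% of the rest in the PDGFRa-GFP cortex. In the hGFAP-GFP cortex it was 27.7% of 47 cells, against 27.6% of all cells. Dlx2 has no row in dpi 25, so it could not be read there, and it was found in 31 cells of dpi 35. In the tumours Tyrobp cells make up part of the cells without Olig1. The part of Dlx2 and Tyrobp cells in the turn was not tested.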

How the results depend on the processing

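Of 239 alternative values, 185 stayed near the value reported, 44 moved and 10 changed sign. No paired analysis was possible because the results come from no test, with 1 sample a group. With the E2F-type motif sought only in 100 bases before the start, the share of promoters was 35.7%, and with TTGGCGC alone 28.6%. Both were above the 3.72% and 2.85% of all genes, and the 7.02% and 5.42% of expressed genes. The share of cells with at least 3 genes depends on its settings by construction. In the order PDGFRa-GFP, hGFAP-GFP, then dpi 25 and dpi 35, it was 48.3%, 38.5%, 63.03% and 23.9% when 2 genes were needed, and 18.6%, 13.6%, 22.3% and 3.62% when 5 were. At 500 UMIs it was 16.96%, 15.3%, 22.4% and 4.63%, and without drawing down 48.2%, 63.3%, 69.0% and 62.3%. In C1 cells at 1 TPM in place of 10, it was 100%, 100%, 85.7% and 96.7% in the 4 sets. By marker at 1 TPM it was 100% in PDGFRa-GFP P3 (Dlx2 and Slc1a3), P6 (Olig1 and Slc1a3) and hGFAP-GFP P4/P6 (Olig1), 84.8% in hGFAP-GFP P3 (Slc1a3) and 97.3% in P4/P6 (Slc1a3).

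The median log2 ratio of dpi 25 over PDGFRa-GFP was −0.40 in Mki67 cells, with 4 genes higher, and −0.042 without Tyrobp, neuronal and mature oligodendrocyte cells. The hGFAP-GFP C1 median was 0.13 from mean log2 values, 0.92 in Olig1 cells and −0.13 in the other cells. With at least 3 genes of a marker's list, the values were −0.059 with 13 genes higher (PDGFRa-GFP, Dlx2), −0.60 with 3 higher (PDGFRa-GFP, Slc1a3), −0.17 with 11 higher (dpi 25, Slc1a3), 17 higher (dpi 25, Olig1) and 33 lower (hGFAP-GFP, Slc1a3). The Slc1a3 median of the PDGFRa-GFP cortex was −0.15 with 10 higher at 2 UMIs of the marker, and −0.30 with 8 higher when the marker was read after drawing down. With exactly 1 of the 5 markers, the Slc1a3 median of dpi 25 was −0.28 with 7 higher, and 18 were higher with Eomes in the hGFAP-GFP cortex. The Mki67, Olig1 and marker-list subsets were chosen after seeing the data, and the cause of these differences was not tested. Each group is 1 sample, and intervals cover counting error only.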
